A study of Mus musculus with 32 samples.

Results

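The genes described here encode the nuclear subunits of the 5 complexes of the mitochondrial respiratory chain. They were taken by symbol (Nduf, Sdh, Uqcr, Cox4 to Cox8 and Atp5 genes) from the protein-coding genes of the count table and kept where at least 8 of 32 kidneys had more than 1 CPM (counts scaled to the total of the library). This gave 84 of 53700 genes, of which 38 belonged to complex I, 4 to complex II, 8 to complex III, 16 to complex IV and 18 to complex V by their symbols. Ndufa4 and Ndufa4l2 are counted with complex I after their symbols, although their proteins are placed with complex IV. Of these, 82 also passed the expression filter of the fit (25% or more of the kidneys with a log2 CPM over 1). Cox4i2 and Cox6a2, tissue isoforms of complex IV subunits, did not pass it. Cox6a2 was the member nearest to the limit, with a CPM over 1 in 9 kidneys, and Cox7b2 was nearest outside it, with at most 0.0542 CPM.

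The respiratory chain passes electrons from NADH (complex I) and succinate (complex II) through ubiquinone, complex III and cytochrome c to oxygen at complex IV, and complex V, the ATP synthase, uses the resulting proton gradient to make ATP. Most subunits are encoded in the nucleus, while the mitochondrial genome encodes a few core subunits of every complex but complex II. Tubular epithelium, and the proximal tubule above all, depends on this pathway to drive reabsorption.

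The samples were kidneys of male C57BL/6 mice, labelled as wildtype or as Pkd1 knockout. The knockout mice were of the iKspCre-Pkd1del line. It carries loxP sites around exons of Pkd1 and a tamoxifen-inducible Cre driven by a promoter that is active in kidney tubules. In 12 PKD mice and 12 PKD + Salsalate mice, Pkd1 deletion was induced with tamoxifen (150 mg/kg, oral gavage) on days 18 and 19 after birth. The PKD + Salsalate mice then ate chow with 2.5 g/kg salsalate, a prodrug of salicylate, for 2 weeks from day 81. Both PKD groups had been selected for a similar, mild cystic phenotype. The 8 wildtype mice had not received tamoxifen, and their labels give an age of 109 days against 95 days for the PKD groups. The growth protocol instead ends the experiment on day 95 for all mice. Genotype, tamoxifen and any difference in age therefore cannot be told apart in any comparison with wildtype. The names of 5 wildtype libraries (replicates 1 to 5) end in R, those of the other wildtype libraries (replicates 6 to 8) and of all PKD libraries do not, and the labels do not say what the ending stands for. The comparisons of the members with wildtype are therefore also given against each of these sets.

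Each kidney had between 11193136 and 109807664 counts on genes. Genes took 73.6% to 76.4% of the alignments in the wildtype R set, 80.9% to 83.1% in the wildtype set without R, 74.1% to 82.9% with PKD and 78.6% to 82.7% with PKD + Salsalate. Pkd1 lay between 53.1 and 86.4 CPM in wildtype kidneys (median 66.4) and between 70.7 and 113 CPM in PKD kidneys (median 92.2), so its transcript count was not lower after deletion. Its log2 fold change in PKD kidneys was 0.42 (adjusted p = 0.00134, edgeR) against all wildtype kidneys and 0.54 (adjusted p = 0.000234, edgeR) against the R set. Against the set without R it was 0.25 (adjusted p = 0.170, edgeR). The Pkd1 count spans undeleted exons and cells outside the Cre domain and is a weak check of the labels. Kidney tubule markers were abundant in all groups, with a summed level of 15 proximal tubule markers of at least 23260 CPM in every kidney.

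Levels below are CPM normalised with the trimmed mean of M-values. Differences are log2 fold changes ± standard error from edgeR's quasi-likelihood test over 13961 genes, with Benjamini-Hochberg adjusted p-values and a threshold of 0.05. Each uses 12 PKD kidneys, 12 PKD + Salsalate kidneys and 8 wildtype kidneys (5 with R and 3 without), and p-values measure the spread between these kidneys.

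The promoters of complex II genes are shown first, because complex II was the complex in which all subunits were lower in PKD kidneys against the wildtype set without R, and because the motif of NRF1, a transcription factor of many respiratory genes, occurred in 2 of its 4 promoters. Complexes III and V held it in 0 of 8 and 0 of 18 promoters, complexes I and IV in 4 of 38 and 1 of 16, and the 11 members that were lower against each wildtype set in 0. The motif was searched as GCGCA, any base and GCGC, in 1 run, on both strands of the 250 bases before the start of the canonical transcript (GRCm39). In the sites below, each 30 bases on the minus strand of the genome, capitals mark the motif. The Sdha site lies at chr13:74498438-74498467, and the Sdhd site lies at chr9:50515209-50515238.
Sdha: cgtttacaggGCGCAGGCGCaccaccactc
Sdhd: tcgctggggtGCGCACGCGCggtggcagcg

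Over all complexes, 7 of 84 member promoters held the NRF1 motif (8.33%), against 3.7% of 21770 promoters of protein-coding genes and 5.51% of the 12899 whose gene was tested. The other 5 were those of Cox6a1, Ndufa13, Ndufb11, Ndufb4 and Ndufs5. A GABP/ETS motif (CCGGAAG) was found in 6 member promoters, an estrogen-related receptor motif (CAAGGTCA) in 1 and a CREB motif (TGACGTCA) in 1, which were 7.14%, 1.19% and 1.19% of members against 9.58%, 1.19% and 1.99% of tested genes.

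In PKD kidneys, most respiratory chain subunits were lower than in wildtype kidneys, in every complex. Of 82 members, 61 were lower and 1 was higher, while 49.1% of all genes tested were called, 25.0% lower and 24.1% higher. The median difference of the members was -0.33, against -0.01 over all genes. Lower members made up 29 of 38 in complex I, 3 of 4 in complex II, 6 of 8 in complex III, 12 of 14 in complex IV and 11 of 18 in complex V, with medians of -0.32, -0.24, -0.37, -0.39 and -0.29. Against the wildtype set without R alone, they made up 9 of 38, 4 of 4, 3 of 8, 1 of 14 and 5 of 18, where 18.5% of all genes were lower. In that comparison most members were lower in complex II only. Bulk counts cannot tell fewer tubular cells from less RNA per cell. Summed markers of leukocytes lay between 233.5 and 340.4 CPM in PKD kidneys and between 104 and 156.7 CPM in wildtype kidneys, and summed fibroblast markers between 586 and 1105 CPM and between 232.8 and 380 CPM. All 6 tested leukocyte markers, all 6 fibroblast markers and all 6 markers of tubular injury were higher in PKD kidneys, and their part in the lower subunit levels was not tested.

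The wildtype sets also differed from each other in these genes. Of 82 members, 34 were higher and 9 were lower in the R set than in the set without R, where 48.1% of all genes were called (24.4% higher and 23.7% lower). The values of 39 members did not overlap between the sets, where those of 43.8% of all genes did not. Against the R set, 58 members were lower and 4 were higher in PKD kidneys, with a median of -0.40, where 60.3% of all genes were called (29.3% lower and 31.0% higher). Against the set without R, 22 were lower and 1 was higher, with a median of -0.19, where 39.4% of all genes were called (18.5% lower and 20.9% higher). The PKD values did not overlap with those of the R set in 23 members and with those of the set without R in 16, where 20.6% and 23.1% of all genes did not. What the library names stand for, and its part in these numbers, was not tested.

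**Figure D1:**
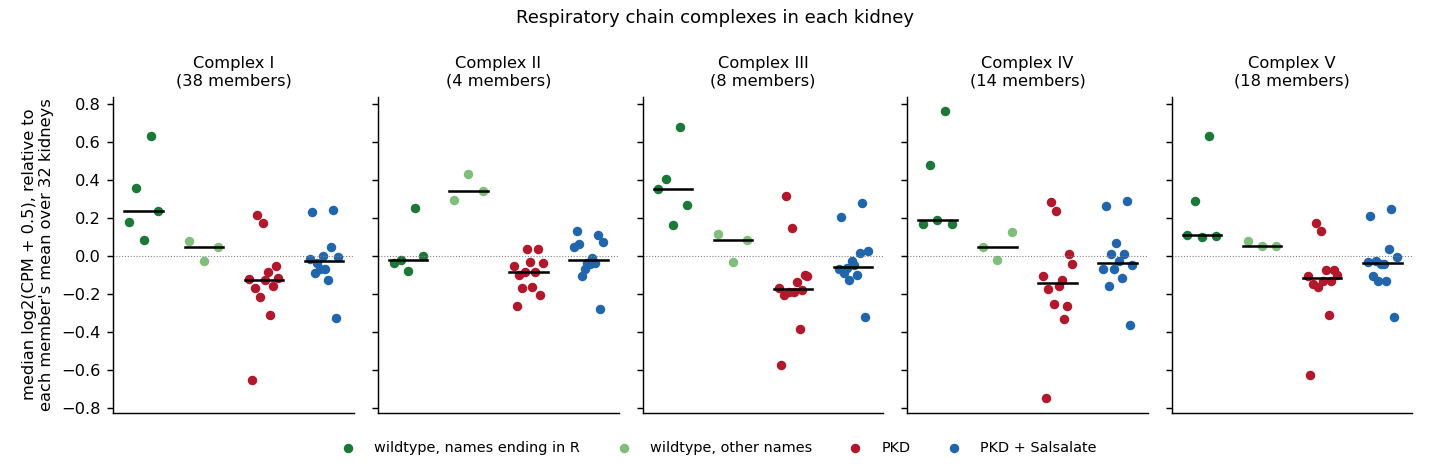
Each point is a kidney, by group, and the y axis gives the median over the tested members of each complex of log2(CPM + 0.5) relative to the member's mean over 32 kidneys, with bars at group medians. The wildtype R kidneys lie highest for complexes I and III to V, with medians of 0.24, 0.36, 0.19 and 0.11, and the wildtype kidneys without R lie highest for complex II, with a median of 0.35.

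Of the 20 members with a coding sequence over 600 bases, 17 (85.0%) were lower in PKD kidneys against the set without R, with a median of -0.32, while 19.5% of all tested genes of that length were lower. Only 1 of the 21 members of up to 300 bases was lower in this comparison, with a median of -0.18, while 8.92% of all tested genes of that length were. Against the R set, 19 of these 21 short members and 12 of the 20 long members were lower, with medians of -1.04 and -0.23, against 50.2% and 26.4% of all tested genes of these lengths. Between the wildtype sets, 14 of the 21 short members and 3 of the 20 long members were higher in the R set, against 46.5% and 22.4% of all tested genes of the same lengths. This division by length was chosen after the values were seen.

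**Figure D2:**
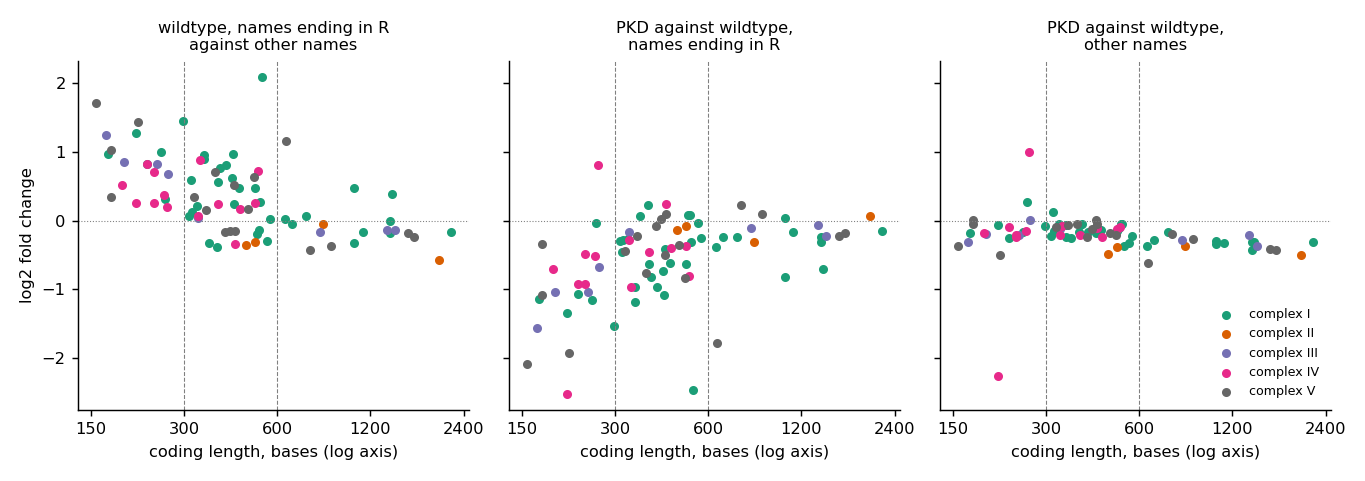
Coding length of each member (bases, log axis) against its log2 fold change, in panels for the wildtype R set against the set without R and for PKD kidneys against each of these sets, with members coloured by complex and dashed lines at 300 and 600 bases. For PKD kidneys, the median of the members up to 300 bases is -1.04 against the R set and -0.18 against the set without R, while the median of those over 600 bases is -0.23 and -0.32.

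In all, 11 members were lower in PKD kidneys against each wildtype set (13.4% of 82), where 7.79% of all genes were. Among them were Ndufs8, Ndufv1, Ndufa9 and Ndufa10 of complex I, Sdhb of complex II, Uqcrc1 of complex III, Cox8b of complex IV, and Atp5f1a, Atp5f1b and Atp5po of the ATP synthase. Another 47 were lower against the R set only and 11 against the set without R only. The count of 11 became 5 with the replicate number as a block, 7 without a filter on low counts, 8 without wildtype replicate 4 and 15 without PKD + Salsalate replicate 11. Cox6b2 was the 1 member higher against each set.

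**Figure D3:**
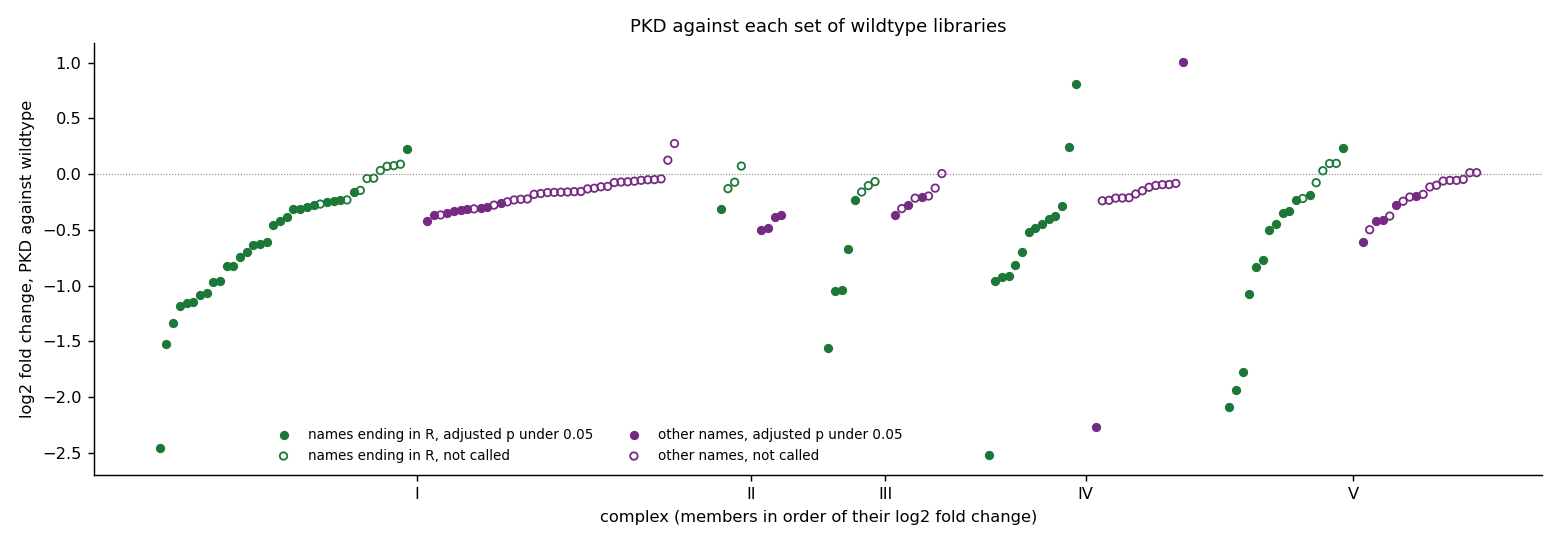
Log2 fold change of each tested member in PKD kidneys against the wildtype R set (green) and against the wildtype set without R (purple), by complex and in order of size, with filled points for an adjusted p under 0.05. Against the R set 58 members were called lower and reached -2.52 (Cox8b), and against the set without R 22 were, and complex II is the complex where more members were called against the set without R (4) than against the R set (1). The comparisons share the PKD kidneys.

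Within complex I, the 7 nuclear core subunits carry the flavin and iron-sulfur clusters or the quinone site, and 29 accessory subunits surround them. Of the core subunits, 6 were lower against all wildtype kidneys, 4 against the R set and 5 against the set without R. Of the accessory subunits, 23 were lower against all wildtype kidneys, 24 against the R set and 4 against the set without R. Of all genes tested, 25.0%, 29.3% and 18.5% were lower in these comparisons and 24.1%, 31.0% and 20.9% were higher. The 4 of 29 accessory subunits were thus a smaller share than that of all genes. The same shares apply to the counts of the other complexes below.

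Ndufv1, which binds NADH and the flavin, lay between 287.8 and 363.6 CPM in PKD kidneys (median 319) and between 317.9 and 452.2 CPM in wildtype kidneys (median 390.4). These ranges overlapped, which held for all but 2 of 82 members (Ndufa10 among the 2), while 7.28% of all genes did not overlap. The difference of Ndufv1 was -0.24 ± 0.07 (adjusted p = 0.00338, edgeR) against the R set and -0.42 ± 0.08 (adjusted p = 0.000146, edgeR) against the set without R. Ndufs1, the largest iron-sulfur subunit, differed by -0.15 ± 0.08 (adjusted p = 0.119, edgeR) against the R set and by -0.31 ± 0.10 (adjusted p = 0.0116, edgeR) against the set without R. Without wildtype replicate 7 the latter was -0.25 (adjusted p = 0.110, edgeR). Ndufs3, a core subunit of the same peripheral arm, showed 0.03 and -0.29 against the R set and the set without R. Ndufs8 and Ndufa9, named here after their values were seen, showed -0.39 and -0.37, and -0.16 and -0.32, against these sets.

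Among accessory subunits, the widest differences lay with the R set. Ndufb9 (ENSMUSG00000022354, chr15:58805594-58814819, plus strand), in the distal membrane arm, was at 176.9, 173.5, 165.8, 256.1 and 131.9 CPM in the wildtype R kidneys and at 41.3, 41.7 and 44.3 CPM in those without R. PKD kidneys lay between 14 and 64.1 CPM (median 30.4), and PKD + Salsalate kidneys between 22.1 and 55.4 CPM (median 31.5). The R kidneys stood above all other kidneys, and the wildtype kidneys without R lay within the PKD range. Accordingly, Ndufb9 was lower in PKD kidneys by -2.46 ± 0.20 (adjusted p = 7.81e-12, edgeR) against the R set and showed -0.37 ± 0.25 (adjusted p = 0.258, edgeR) against the set without R, while the wildtype sets differed by 2.09 ± 0.32 (adjusted p = 2.84e-06, edgeR). Ndufa2, another small accessory subunit, gave -1.52, -0.08 and 1.45 in the same comparisons.

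Ndufb6 was the 1 complex I member called higher against the R set, by 0.23 ± 0.10 (adjusted p = 0.0449, edgeR), and showed -0.16 ± 0.11 (adjusted p = 0.266, edgeR) against the set without R. The call was lost when any 1 of 12 kidneys was left out (wildtype replicates 1, 2, 3 and 5, PKD replicates 1, 4, 6, 7, 10, 11 and 12, and PKD + Salsalate replicate 4), with the highest adjusted p of 0.144 without wildtype replicate 5. Exons of Ndufb2, Ndufb8, Ndufb9, Ndufa13 and Ndufc1 overlap those of other genes on the same strand, so their counts leave out ambiguous reads. Ndufa4 and its paralog Ndufa4l2, named after complex I but placed with complex IV, were called in no comparison of PKD with wildtype.

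Complex II, succinate dehydrogenase, has no mitochondrially encoded subunit. All 4 genes were lower in PKD kidneys against the set without R, with a median of -0.44, and 1 was lower against the R set. The catalytic flavoprotein Sdha (ENSMUSG00000021577, chr13:74469359-74498436, minus strand) was at 539.7, 454.6, 460.4, 538.4 and 510.9 CPM in the wildtype R kidneys and at 734.4, 795.2 and 699 CPM in those without R. It lay between 430.2 and 643.2 CPM in PKD kidneys (median 512.5). The 3 kidneys without R stood above all PKD kidneys, and the R kidneys lay within their range. Sdha showed 0.07 ± 0.08 (adjusted p = 0.438, edgeR) against the R set and was lower by -0.50 ± 0.09 (adjusted p = 5.94e-05, edgeR) against the set without R, and the R set was lower than the set without R by -0.57 ± 0.11 (adjusted p = 5.01e-05, edgeR).

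Sdhb, the iron-sulfur subunit (ENSMUSG00000009863, chr4:140688502-140709380, plus strand), was at 356.3, 449, 366.9, 526.5 and 406.2 CPM in the wildtype R kidneys, at 433.3, 455.4 and 420.8 CPM in those without R, and between 297.6 and 405.8 CPM in PKD kidneys (median 341.1). All PKD kidneys were below the kidneys without R and overlapped with the R kidneys. Sdhb was lower by -0.31 ± 0.08 (adjusted p = 0.00131, edgeR) and -0.37 ± 0.10 (adjusted p = 0.00328, edgeR) against the R set and the set without R. The membrane anchor Sdhd was lower by -0.48 ± 0.07 (adjusted p = 5.44e-06, edgeR) against the set without R and showed -0.13 ± 0.06 (adjusted p = 0.0762, edgeR) against the R set. Sdhc, the other anchor, named after its values were seen, showed -0.39 and -0.07. Summed proximal tubule markers were highest in the same set, between 38880 and 44450 CPM, against 26160 to 40840 CPM in the R set and 29470 to 38400 CPM in PKD kidneys, and their part in the complex II values was not tested.

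**Figure D4:**
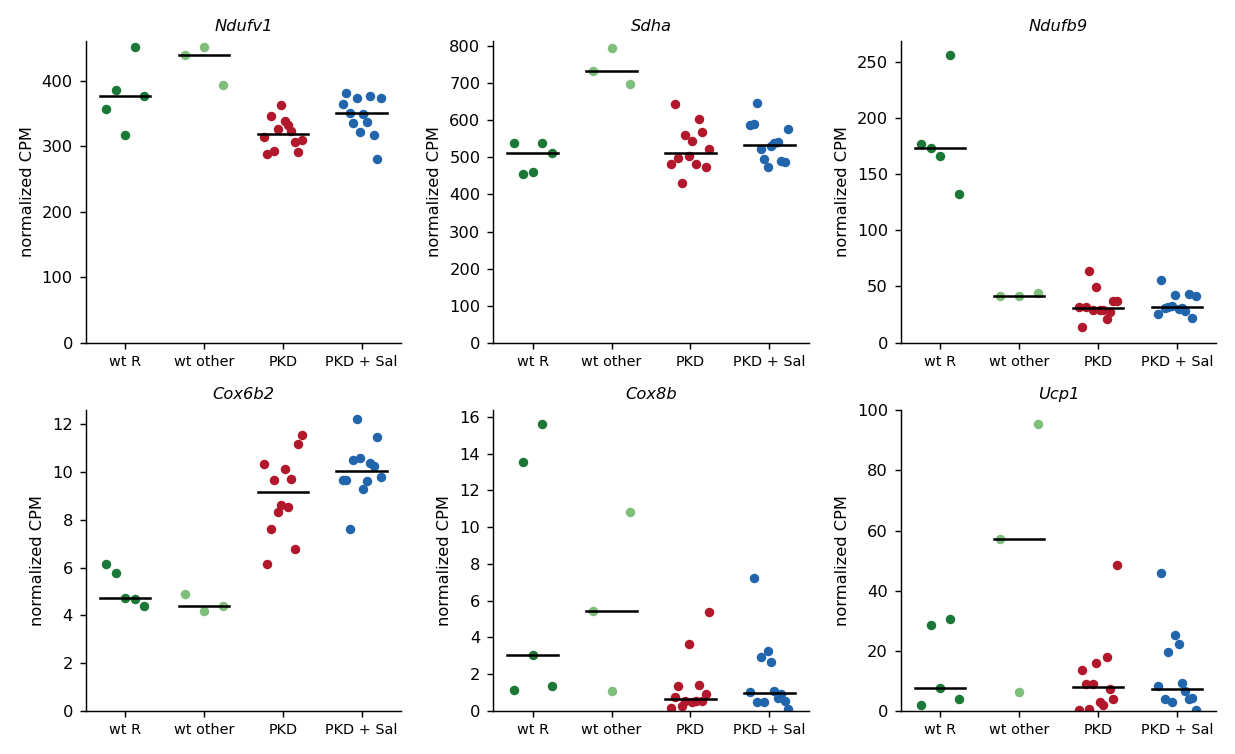
TMM-normalised CPM of Ndufv1, Sdha, Ndufb9, Cox6b2, Cox8b and Ucp1 in each kidney (points, by group, with bars at medians). The PKD kidneys lie lower than most wildtype kidneys for Ndufv1 (medians 319 and 390.4 CPM), the wildtype sets lie apart for Sdha and Ndufb9, and 11 of 12 PKD kidneys lie above all wildtype kidneys for Cox6b2.

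In complex III, the 3 core and iron-sulfur proteins Uqcrc1, Uqcrc2 and Uqcrfs1 were lower against the set without R, and of the 5 small subunits none was. Against the R set, 4 of the 5 small subunits and Uqcrc1 were lower. Uqcrc1 lay between 425 and 560.9 CPM in PKD kidneys (median 505.8), between 492 and 690.7 CPM in the R set and between 608.4 and 669.6 CPM in the set without R. PKD values overlapped with the R set but not with the set without R. The differences were -0.23 ± 0.08 (adjusted p = 0.0110, edgeR) and -0.37 ± 0.09 (adjusted p = 0.00177, edgeR), and without wildtype replicate 4 the former was -0.16 (adjusted p = 0.0812, edgeR). The call was also lost without a filter on low counts and with the replicate block. Uqcrfs1, the Rieske iron-sulfur protein, showed -0.10 and -0.27. Uqcr11, a small subunit, was at 376, 456.5, 344.9, 566.2 and 406.5 CPM in the R set and at 182.5, 169.1 and 191.7 CPM in the set without R, and lay between 61.9 and 253.3 CPM in PKD kidneys. It was lower by -1.56 ± 0.17 (adjusted p = 4.94e-09, edgeR) against the R set and showed -0.31 ± 0.22 (adjusted p = 0.269, edgeR) against the set without R. Uqcr10 followed with -1.04 and -0.20.

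In complex IV, 12 of 14 tested members were lower and 2 were higher against the R set, while 1 was lower and 1 was higher against the set without R. The core-bound subunit Cox4i1 lay between 1109 and 1916 CPM in the R set, between 1159 and 1216 CPM in the set without R and between 709.4 and 1489 CPM in PKD kidneys. The ranges overlapped, with differences of -0.37 ± 0.12 (adjusted p = 0.00640, edgeR) and -0.12 ± 0.14 (adjusted p = 0.530, edgeR). Against all wildtype kidneys Cox4i1 was lower by -0.28 ± 0.10 (adjusted p = 0.0259, edgeR), a call lost without wildtype replicate 2 (adjusted p = 0.0532, edgeR) or replicate 4 (adjusted p = 0.118, edgeR). Cox5a, which binds to the catalytic core, was with Cox6b2 the exception, higher by 0.25 ± 0.10 (adjusted p = 0.0267, edgeR) against the R set and at -0.10 ± 0.11 (adjusted p = 0.494, edgeR) against the set without R. Its call was lost without wildtype replicate 1, 3 or 5, at adjusted p-values of 0.0812, 0.109 and 0.122 in edgeR.

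Cox6b2 (ENSMUSG00000051811, chr7:4754789-4756093, minus strand) encodes an isoform of the complex IV subunit VIb that is best known from testis, and it was the only member called higher in PKD kidneys against all wildtype kidneys. It was at 6.16, 5.78, 4.74, 4.69 and 4.41 CPM in the wildtype R kidneys and at 4.90, 4.19 and 4.39 CPM in those without R. It lay between 6.14 and 11.5 CPM in PKD kidneys (median 9.14) and between 7.61 and 12.2 CPM in PKD + Salsalate kidneys (median 10.0). The wildtype sets overlapped, and 11 of 12 PKD kidneys were above all 8 wildtype kidneys. It was higher by 0.89 ± 0.11 (adjusted p = 3.75e-08, edgeR) against all wildtype kidneys, by 0.81 ± 0.13 (adjusted p = 2.32e-06, edgeR) against the R set and by 1.00 ± 0.15 (adjusted p = 4.63e-06, edgeR) against the set without R. Per kilobase of transcript its median was 7.32 CPM in the wildtype set without R, against 1551 CPM for Cox4i1.

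Cox8b (ENSMUSG00000025488, chr7:140477069-140480359, minus strand), an isoform of striated muscle and brown fat, was at 1.14, 13.5, 3.02, 15.6 and 1.37 CPM in the wildtype R kidneys and at 5.45, 1.08 and 10.8 CPM in those without R. In PKD kidneys it lay between 0.127 and 5.38 CPM (median 0.648). The groups overlapped, with the wildtype values spread from 1.08 to 15.6 CPM. Cox8b was lower by -2.40 ± 0.59 (adjusted p = 0.00120, edgeR) against all wildtype kidneys and by -2.27 ± 0.74 (adjusted p = 0.0147, edgeR) against the set without R. Without wildtype replicate 8 the latter was -1.45 (adjusted p = 0.230, edgeR). Ucp1, the brown fat uncoupling protein, was at 2.08, 28.5, 7.76, 30.4 and 4.03 CPM in the R set and at 57.1, 6.16 and 95.5 CPM in the set without R, and the 4 wildtype kidneys with the highest Ucp1 were the 4 with the highest Cox8b. The sum of 6 fat markers was between 30 and 371.2 CPM in wildtype kidneys and between 8.38 and 234.5 CPM in PKD kidneys, and 0 of the 5 tested were called against all wildtype kidneys (1 at an unadjusted p under 0.05). Against the set without R all 5 were negative, with a median of -1.65, 3 had an unadjusted p under 0.05, and Ucp1 was lower by -2.30 (adjusted p = 0.0196, edgeR). Their part in the Cox8b values was not tested.

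In complex V, the F1 head holds the catalytic sites, the ring of c subunits turns in the membrane and the peripheral stalk holds the head still. Of the 5 members of the head and central stalk, 4 were lower against the R set and 3 against the set without R. The catalytic beta subunit Atp5f1b, among members the most abundant per kilobase of transcript in the wildtype set without R (median 1630 CPM per kilobase), was at 2657, 2700, 2439, 3103 and 2687 CPM in the R set and at 3139, 3319 and 2791 CPM in the set without R. In PKD kidneys it lay between 1807 and 2568 CPM (median 2416). All PKD kidneys were below the set without R, and the range overlapped with that of the R set. Atp5f1b differed by -0.23 ± 0.09 (adjusted p = 0.0218, edgeR) and -0.41 ± 0.10 (adjusted p = 0.00173, edgeR), and the alpha subunit Atp5f1a by -0.18 ± 0.07 (adjusted p = 0.0319, edgeR) and -0.42 ± 0.09 (adjusted p = 0.000272, edgeR). Without wildtype replicate 4, the values against the R set were -0.18 (adjusted p = 0.0969, edgeR) for Atp5f1b and -0.13 (adjusted p = 0.149, edgeR) for Atp5f1a, whose call was also lost without wildtype replicate 5 (adjusted p = 0.0603, edgeR). Other processing ended these calls too, for Atp5f1a in 3 of 10 alternatives (highest adjusted p = 0.239, edgeR) and for Atp5f1b in 2 of 10 (highest adjusted p = 0.163, edgeR).

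The epsilon subunit Atp5f1e (ENSMUSG00000016252, chr2:174302861-174305906, minus strand), the smallest of the head and stalk, was at 519.5, 553.8, 473.8, 766 and 547.3 CPM in the R set and at 173.7, 165.5 and 186.3 CPM in the set without R. PKD kidneys lay between 61 and 216.7 CPM (median 132.3). The R kidneys stood above all others, and those without R lay within the PKD range. Atp5f1e was lower by -2.08 ± 0.17 (adjusted p = 5.46e-12, edgeR) against the R set and showed -0.38 ± 0.21 (adjusted p = 0.153, edgeR) against the set without R. The membrane subunit Atp5me followed with -1.93 and -0.50. Atp5po, the stalk subunit that grips the head, named after its values were seen, was lower against each set, by -1.77 ± 0.13 (adjusted p = 6.35e-13, edgeR) and -0.61 ± 0.16 (adjusted p = 0.00247, edgeR). Its exons overlap those of a second gene ID with the same symbol on the same strand, so its counts leave out ambiguous reads. Before normalisation its mean was 20.1 CPM. Atp5pb, of the same stalk, was called in opposite directions, higher by 0.23 ± 0.06 (adjusted p = 0.00107, edgeR) against the R set and lower by -0.19 ± 0.07 (adjusted p = 0.0261, edgeR) against the set without R. The latter call was lost without wildtype replicate 6 (adjusted p = 0.0805, edgeR) or replicate 7 (adjusted p = 0.160, edgeR). The 3 genes of the c ring were called in none of these comparisons.

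With salsalate, 0 of 82 members were called against PKD by edgeR, limma-voom or DESeq2. Of all genes, edgeR called 0.58% (0.251% higher and 0.329% lower). An unadjusted p under 0.05 was reached by 12 members, at a looser threshold, so this count cannot be compared with these shares. No member was without overlap between these groups, where 0.0287% of all genes were. The differences were small and mostly upward, positive in 75 of 82 members with a median of 0.10, while 6424 of 13961 genes were positive with a median of -0.01. By complex, 33 of 38, 4 of 4, 8 of 8, 14 of 14 and 16 of 18 tested members of complexes I to V were positive. Members share the kidneys and are not independent of each other, and the number of positive members fell to 65 without PKD + Salsalate replicate 2. Of the markers, all 6 of tubular injury (median -0.37), all 6 tested of leukocytes (median -0.09) and all 6 tested of liver (median -1.55) were negative with salsalate, and 3, 0 and 5 had an unadjusted p under 0.05. Of these only Alb was called, at -5.96 (adjusted p = 0.0146, edgeR). Summed liver markers reached 3850 CPM in the highest PKD kidney and 139.5 CPM in the highest PKD + Salsalate kidney. Their medians were 109.2 CPM in PKD and 115.3 CPM in PKD + Salsalate kidneys, so the typical treated kidney was not lower. Fibroblast markers were negative in 5 of 6 and proximal tubule markers in 8 of 15, with none called. The part of these markers in the subunit values was not tested.

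Among the members with the smallest unadjusted p were Ndufb8 and Ndufb5. The complex I accessory subunits Ndufb8 and Ndufb5 differed by 0.23 (0.06 to 0.40, adjusted p = 0.252, edgeR) and 0.17 (0.04 to 0.29, adjusted p = 0.255, edgeR). For each, 11 of 12 PKD + Salsalate kidneys were above the PKD median, and the groups overlapped. Without PKD + Salsalate replicate 11, 1 member was called higher.

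**Figure D5:**
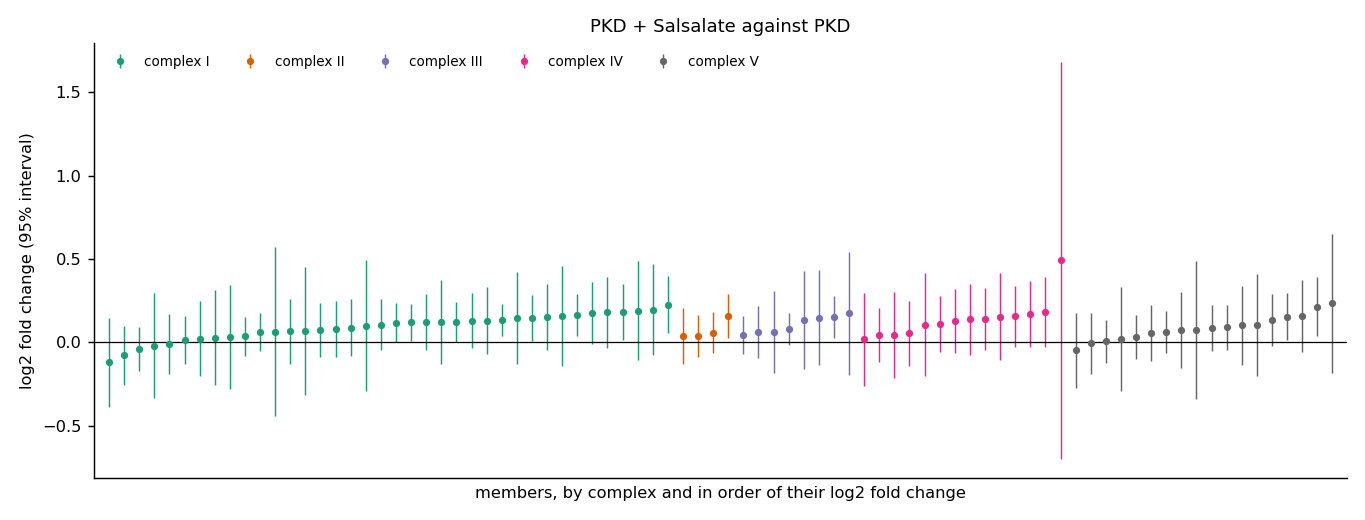
Log2 fold change of each tested member in PKD + Salsalate against PKD kidneys, by complex and in order of size, with 95% confidence intervals. The points lie mostly above 0 (75 of 82, median 0.10), and 0 members were called.

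Against wildtype, the PKD + Salsalate kidneys had 45 lower members and 1 higher, with a median of -0.24, where 44.9% of all genes were called (23.2% lower and 21.8% higher). Against the R set 45 were lower and 6 were higher, where 58.6% of all genes were called (28.8% lower and 29.8% higher). Against the set without R 10 were lower and 1 was higher, where 33.5% of all genes were called (15.7% lower and 17.8% higher). This last total of 11 members was 6 without wildtype replicate 7 and 17 without PKD + Salsalate replicate 2. Of 82 members, 2 were lower against each set, where 5.99% of all genes were.

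Isoform ratios compare genes that encode alternative forms of a subunit within each kidney. They were computed as log2 ratios of CPM plus 0.5 for 9 pairs in PKD against wildtype and PKD + Salsalate against PKD, and p-values were adjusted over these 18 tests. The ratio of Cox6b2 to Cox6b1 was higher in PKD kidneys, at -4.83 against -6.02 in wildtype, a difference of 1.19 (2-sided exact permutation test, p = 7.94e-06, the smallest that the splits can give, adjusted p = 0.000143). It held against each set, by 1.25 and 1.08 (exact permutation tests, adjusted p = 0.00145 and 0.0198). The ratio of Cox8b to Cox8a differed by -1.36 (exact permutation test, adjusted p = 0.0628), and that of Ndufa4l2 to Ndufa4 by 0.28 (exact permutation test, adjusted p = 0.122).

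Atp5mc1, Atp5mc2 and Atp5mc3 encode the same mature c subunit with different import sequences. The ratio of Atp5mc1 to Atp5mc3 was -1.41 ± 0.05 (SD, n = 12) in PKD + Salsalate kidneys and -1.60 ± 0.11 (SD, n = 12) in PKD kidneys, a difference of 0.19 (2-sided permutation test, p = 3e-05, adjusted p = 0.00027). The kidneys overlapped, from -1.53 to -1.33 and from -1.79 to -1.45, and the call was kept with any 1 kidney left out. On their own, Atp5mc1 differed by 0.22 ± 0.09 (adjusted p = 0.320, edgeR) and Atp5mc3 by 0.04 ± 0.07 (adjusted p = 0.918, edgeR). The ratio of Atp5mc1 to Atp5mc2 was lower in PKD than in wildtype kidneys by -0.19 (exact permutation test, adjusted p = 0.0332), was called in 23 of 32 analyses with 1 kidney left out, and did not pass against the R set (adjusted p = 0.146) or the set without R (adjusted p = 0.158) alone in exact permutation tests.

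The other genes of the pathway were described by list, against the 25.0% of all genes that were lower and the 24.1% that were higher in PKD than in all wildtype kidneys, the 29.3% and 31.0% against the R set and the 18.5% and 20.9% against the set without R. Of 13 coenzyme Q genes, 9 were lower against all wildtype kidneys, 9 against the R set and 9 against the set without R, and 0 were higher. Coq8a, a kinase-like regulator of coenzyme Q synthesis, was at -0.52 against the R set and -0.78 against the set without R, and Coq10a, a coenzyme Q binding protein, was at -0.67 and -0.31, all of them called. Of 9 tested electron carriers and partner subunits, 2 were lower against all wildtype kidneys, 2 against the R set and 2 against the set without R. These were not the same genes throughout. In the same order, 1, 3 and 0 were higher. Cyc1, the cytochrome c1 of complex III, was lower at -0.31 against the R set and -0.43 against the set without R. Etfb, of the electron transfer flavoprotein, was at -2.72 and -0.37 (adjusted p = 0.279, edgeR) in these comparisons, and Cycs, cytochrome c, at 0.25 and 0.17 (adjusted p = 0.234, edgeR).

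Assembly factors build the complexes from their subunits. Against all wildtype kidneys, lower factors numbered 7 of 17 for complex I, 2 of 4 for complex II, 6 of 6 for complex III, 11 of 22 for complex IV and 3 of 5 for complex V, and 0 were higher. Against the R set 6, 1, 6, 12 and 3 were lower and 1, 0, 0, 4 and 0 higher, and against the set without R 9, 1, 2, 5 and 4 were lower and 0 higher. The largest falls against all wildtype kidneys were Ndufaf8 (-0.91) and Ecsit (-0.40) for complex I, Uqcc2 (-0.80) and Uqcc3 (-0.67) for complex III, Coa7 (-0.81) and Pet100 (-0.71) for complex IV, and Fmc1 (-0.49) and Tmem70 (-0.36) for complex V. Of these 8, Ecsit (-0.35), Coa7 (-0.31) and Tmem70 (-0.28) were also called against the set without R. The others were at -0.03 for Ndufaf8, -0.09 for Uqcc2, -0.03 for Uqcc3, -0.18 for Pet100 and -0.34 for Fmc1 in that comparison and were not called.

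Of 18 regulators of mitochondrial genes, 8 were lower and 2 were higher against all wildtype kidneys, 7 and 4 against the R set, and 3 and 2 against the set without R. Esrrb, an estrogen-related receptor, was lower at -0.52 against the R set and -0.65 against the set without R, and its relative Esrra at -0.23 and -0.42. The coactivator Ppargc1b was lower at -0.68 against the R set and at -0.21 (adjusted p = 0.374, edgeR) against the set without R. Ppargc1a, the best known coactivator of this pathway, was lower at -0.50 against the R set and at 0.00 (adjusted p = 0.996, edgeR) against the set without R. Pprc1, a related coactivator, was higher at 0.32 and 0.46, and Gabpb1, a subunit of the GABP factor, was at 0.26 and 0.22 (adjusted p = 0.0538, edgeR). Nrf1, the gene of the factor whose motif was searched above, was at 0.13 (adjusted p = 0.109, edgeR) against all wildtype kidneys. Against the R set it was at 0.10 (adjusted p = 0.284, edgeR). Its part in the subunit values was not tested.

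Of the 11 tested subunits encoded by the mitochondrial genome, 6 were lower against all wildtype kidneys, 6 lower and 1 higher against the R set, and 1 lower against the set without R. The largest called falls against all wildtype kidneys were mt-Nd3 (-0.82) of complex I and mt-Co2 (-0.55) of complex IV. Against the set without R these genes were at 0.05 and -0.34 and not called. Between them lay mt-Atp6 of complex V, at -0.57 against all wildtype kidneys and not called (adjusted p = 0.148, edgeR). Summed over the 13 genes, the median was 79840 CPM in wildtype, 71270 CPM in PKD and 74880 CPM in PKD + Salsalate kidneys. Of 23 other mitochondrial genes, 8 were lower and 5 higher against all wildtype kidneys, 6 and 7 against the R set, and 8 and 0 against the set without R. With salsalate, edgeR called 0 genes in the lists of coenzyme Q, electron carriers, assembly factors, regulators, mitochondrially encoded subunits and other mitochondrial genes. An unadjusted p under 0.05 in edgeR was reached by 5 of 13 coenzyme Q genes, 4 of 11 mitochondrially encoded subunits and 3 of 23 other mitochondrial genes. It was also reached by 1 electron carrier or partner subunit, 1 complex I assembly factor, 1 regulator and 0 assembly factors of complexes II to V. Of the 5 coenzyme Q genes, Coq10b was negative (-0.17) and the others were positive. This threshold is looser than that of the calls, and no share of all genes is given at it.

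Of the tubule markers, 5 of 15 for proximal tubule, 3 of 6 for thick limb and distal tubule and 3 of 8 for collecting duct were lower in PKD than in all wildtype kidneys, and 2, 0 and 1 were higher. Against the set without R, 8, 4 and 4 were lower and 0, 0 and 2 higher, and against the R set 4, 3 and 3 were lower and 8, 2 and 4 higher. Of 6 tested liver markers 4 were higher, and of 8 pericyte and smooth muscle markers 4 were higher. The summed liver markers were at 3850 CPM in 1 PKD kidney against at most 188.8 CPM in wildtype kidneys. Their median was lower in PKD (109.2 CPM) than in wildtype kidneys (145.4 CPM). The sum of 8 skeletal muscle markers was at most 5.38 CPM, and none of them was tested. Their part in the subunit values was not tested.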

How the data were processed

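Poly(A) RNA of 32 kidneys was sequenced with a stranded kit (8 wildtype, 12 PKD and 12 PKD + Salsalate). Per the labels and the study's methods, the authors trimmed reads with cutadapt 2.10, aligned them to GRCm39 with STAR 2.7.5a and deposited raw counts per Ensembl gene, made by strand with HTSeq 0.12.4. Such counts leave out reads that are ambiguous between genes or have several places in the genome. At the lowest total, 11193136 counts, a CPM of 1 stands for about 11 counts.

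Symbols, positions and coding lengths came from GENCODE release M39 (52610 of 53700 IDs matched). The fits used edgeR 4.0.16 in R 4.3.3 (TMM, glmQLFit, glmQLFTest) over 13961 genes with a log2 CPM over 1 in 25% or more of the kidneys. The 3 groups were fitted together, and again with the wildtype libraries split by the ending R in their name, and p-values were adjusted over all genes tested. Isoform ratios (pseudocount 0.5) were compared by exact permutation or 100000 permutations. The procedure was tested on simulated data.

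Members, lists and tests were chosen with earlier results of these data known. Named are, in PKD against wildtype and PKD + Salsalate against PKD, the 2 largest called rises and falls per complex, 10 core subunits, the isoform pairs, the 3 smallest p-values with salsalate where no member was called, members called against the majority of their complex and those beside the CPM limit, and per list the 2 largest called rises and falls. Other names (Ndufs8, Ndufa9, Ndufa10, Sdhc, Uqcrc2, Atp5po, Esrra and Ppargc1a among them) were chosen after their values were seen. Alternatives were DESeq2 1.42.0 (size factors and Wald test), upper-quartile factors, limma-voom (limma 3.58.1), other filters, each kidney left out, a block for the replicate number, fits of only the groups compared, and, chosen after the data were seen, PKD replicates 2 and 4 left out and members split by role and coding length. The labels give no batch. The values of 1 member are not reported here, although it is in all counts.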

Additional observations from a re-analysis of the deposited data

Results flagged for a closer look

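Cox4i1 in wildtype replicate 4 was at 1916 CPM, set apart from the other 7 wildtype kidneys, of which the next was at 1489 CPM. The gap was 0.529 of the group's range, above Dixon's critical value for 8 samples. The 39 named members were screened in this way, and chance would mark about 1 in 20 groups. Without this kidney, Cox4i1 in PKD against wildtype kidneys was at -0.19 (adjusted p = 0.118, edgeR's quasi-likelihood test with Benjamini-Hochberg adjustment).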

How the results depend on the processing

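No called difference of a named member reversed under the alternatives run. Of 2862 alternative values for single members, 2783 stayed on the same side of the threshold, 78 lost the call and 1 gained it. With other tools, filters and fits, members called numbered 53 to 63 for PKD against wildtype (62 as reported), 54 to 65 against the R set (62), 18 to 25 against the set without R (23) and 0 for salsalate against PKD. With each kidney left out in turn, these counts were 53 to 63, 48 to 65, 17 to 26 and 0 to 1. PKD + Salsalate against the set without R ranged from 6 (without wildtype replicate 7) to 17 (without PKD + Salsalate replicate 2), against 11 as reported. Isoform ratios called ranged from 2 to 5 against 3, with 5 without wildtype replicate 5 or PKD replicate 6, where Cox8b to Cox8a, Ndufa4l2 to Ndufa4 or Atp5mc1 to Atp5mc2 passed. Lower members of complex IV against the set without R were 0 without wildtype replicate 8, where Cox8b lost its call. The causes were not tested.

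With the replicate number as a block, 56 members were called in PKD against wildtype, 54 against the R set, 18 against the set without R and 0 with salsalate, and members lower against each set fell from 11 to 5. The numbers do not pair the mice. Over 28 pairs of same-numbered kidneys, the correlation of their deviations was between -0.574 and 0.485, 8 were over 0.1, and 4 of 32 kidneys correlated best with their own number.

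Only 3 wildtype kidneys lack the ending R, and the lowest total of 11193136 counts limits members near the CPM threshold, such as Cox8b.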
